A study of Mus musculus with 25 samples.

Results

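Cell surface receptors that T cells use for activation and costimulation were followed as a group of 10 genes, Cd27, Cd28, Cd69, Icos, Ctla4, Tnfrsf4, Tnfrsf9, Tnfrsf18, Cd40lg and Cd83, picked by gene symbol from the 48795 genes of the deposited table. All 10 were found, and all 10 had a mean of at least 10 normalized counts over the 25 libraries, the filter that left 14141 genes for testing. Cd40lg passed this filter only through its libraries of 24 and 48 hr. Every mouse lacked Rag1 and carried CD2-Cre, a transgene that expresses Cre recombinase in lymphoid cells. WNK1-deficient mice were Wnk1 fl/fl, with both alleles of the kinase gene open to deletion, and control mice were Wnk1 fl/+, so that control thymocytes also carried a deleted allele and kept 1 intact allele. Mice of 7 to 8 weeks of age received 150 µg of anti-CD3ε by intraperitoneal injection 3, 24 or 48 hr before analysis, and uninjected mice formed the 0 hr groups. Polyadenylated RNA was sequenced from sorted Thy1.2+ CD44- thymocytes, a gate that takes double negative thymocytes of the DN3 and DN4 stages. Each library came from a different mouse, with 4 WNK1-deficient mice at 0 hr and 3 mice in each of the other 7 groups.

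CD28, ICOS and CTLA-4 belong to the CD28 family: CD28 and ICOS add a stimulatory signal to that of the antigen receptor, and CTLA-4 competes with CD28 for the same ligands and dampens the response. CD27, OX40 (encoded by Tnfrsf4), 4-1BB (Tnfrsf9) and GITR (Tnfrsf18) are members of the tumour necrosis factor (TNF) receptor superfamily that signal through TRAF adaptors to NF-κB, while CD40 ligand is a TNF family ligand displayed by activated T cells. CD69 is a C-type lectin that appears early after stimulation, and CD83 is an immunoglobulin superfamily protein that stabilizes surface MHC class II. In Rag1-deficient mice no pre-TCR can be made and thymocytes stop at the DN3 stage, and anti-CD3ε stands in for the missing signal and drives them forward.

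Several of the genes lie side by side in the genome (GRCm38.p6, RefSeq). Cd28 (chr1:60746388-60773359), Ctla4 (chr1:60909025-60915832) and Icos (chr1:60960773-61000322) follow each other on chromosome 1, with gaps of 135.7 and 44.9 kb. Tnfrsf4 (chr4:156013595-156016613) and Tnfrsf18 (chr4:156026322-156028894) are 9.71 kb apart on chromosome 4, which also carries Tnfrsf9 (chr4:150920155-150946104). Cd27 (chr6:125232620-125237136) and Cd69 (chr6:129267324-129275375) are on chromosome 6, Cd83 (chr13:43785112-43803133) is on chromosome 13 and Cd40lg (chrX:57212143-57224042) is on the X chromosome. Promoter windows were taken from RefSeq (GRCm38.p6) as the 250 bases before a transcript start, and 5 of the 10 genes had at least 1 window (Cd27, Ctla4, Tnfrsf4, Tnfrsf9 and Tnfrsf18). Shown here are the windows of Tnfrsf9, which rose after injection, and of Ctla4, which fell, all on the plus strand, with matches to a κB or AP-1 motif in capitals. The first Tnfrsf9 window is chr4:150919905-150920154, the second, before a start inside the gene, is chr4:150927749-150927998, and the Ctla4 window is chr1:60908775-60909024.
Tnfrsf9 first start: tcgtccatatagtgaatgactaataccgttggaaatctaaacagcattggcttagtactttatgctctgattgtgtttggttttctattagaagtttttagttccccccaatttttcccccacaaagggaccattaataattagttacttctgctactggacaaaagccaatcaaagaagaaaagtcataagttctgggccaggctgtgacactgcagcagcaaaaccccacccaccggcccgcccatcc
Tnfrsf9 second start: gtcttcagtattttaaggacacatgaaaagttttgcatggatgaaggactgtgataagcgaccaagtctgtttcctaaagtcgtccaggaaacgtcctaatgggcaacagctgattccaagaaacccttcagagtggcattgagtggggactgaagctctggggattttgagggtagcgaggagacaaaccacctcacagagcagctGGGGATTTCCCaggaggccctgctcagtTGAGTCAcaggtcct
Ctla4: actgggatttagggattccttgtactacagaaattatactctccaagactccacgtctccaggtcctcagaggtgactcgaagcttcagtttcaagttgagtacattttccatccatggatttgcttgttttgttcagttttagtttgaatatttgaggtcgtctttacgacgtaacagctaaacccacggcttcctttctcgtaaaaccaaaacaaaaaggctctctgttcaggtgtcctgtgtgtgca
The second Tnfrsf9 window held 2 overlapping matches to the κB consensus, at positions -43 and -42 counted back from the start, and a match to AP-1 (TGANTCA) at -15. The other windows of the 5 genes held neither motif on either strand, and no window held the EGR, NBRE or CRE motif. Among 32851 mouse windows of the same length, 3.9% held the κB consensus and 6.75% the AP-1 motif, whereas the NFAT core GGAAA, present in every window of the 5 genes, was in 55.6%. One of the NFAT cores in the second Tnfrsf9 window overlaps the κB match. These matches describe letters only, and the data hold no measurement of factor binding.

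Between 22.5 and 57.3 megareads were recovered from each library, the median being 36.6 megareads. Wnk1 itself was lower in every WNK1-deficient library than in every control library of the same time, with log2 fold changes of -0.83, -0.99, -0.95 and -1.06 at 0, 3, 24 and 48 hr (adjusted p between 0.00555 and 0.0104). Exons outside the floxed part still give reads, so these values check the genotype labels and do not measure the share of deleted alleles. The markers of DN thymocytes Thy1, Cd3e, Ptcra and Il2ra were read in all 25 libraries, Ptcra with only 8, 2 and 3 reads in WNK1-deficient libraries of 24 hr. Their levels were not matched before injection. Ptcra then ran from 3902 to 5164 normalized counts in WNK1-deficient and from 17024 to 18678 in control libraries (-1.95, adjusted p = 0.149, not called). Of 8 DN markers tested between genotypes at 0 hr, Cd3e (-0.88), Cd3g (-0.98) and Lck (-0.87) were called, all as lower in WNK1-deficient thymocytes, and 0 as higher. Of all genes tested, 11.1% were called lower and 11% higher at 0 hr. The third control mouse at 24 hr kept 2344 normalized counts of Ptcra, the pre-TCRα chain lost beyond DN3, against 59.2 and 115 in the other control mice, and the third WNK1-deficient mouse at 48 hr kept 574 against 18.2 and 22.5. The third control mouse at 3 hr had 27562 summed normalized counts of Cd4, Cd8a, Cd8b1 and Trac, against 552 and 1100. Mice at 0 and 48 hr expressed Xist and mice at 3 and 24 hr expressed Y-linked genes, in both genotypes, so at 3 and 24 hr the change from 0 hr and sex cannot be told apart, while 48 hr is compared with 0 hr within one sex. By the names of the libraries, all control libraries of 0 hr were run on lane 1 and all WNK1-deficient ones on lane 2. At 3 hr all WNK1-deficient libraries and control replicate 3 were on lane 4, and control replicates 1 and 2 on lane 3. Libraries of 24 hr were on lanes 3 and 4. At 48 hr WNK1-deficient replicates 1 and 2 and control replicate 3 were on lane 1. Control replicates 1 and 2 were then on lane 2, and WNK1-deficient replicate 3 on lane 3. In every group split over lanes, replicate 3 was alone on its lane. This includes the libraries above with outlying Ptcra or summed counts, for which lane and mouse cannot be told apart. In bulk RNA, fewer cells that express a gene and less RNA of it per cell cannot be told apart.

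With all libraries, the number of the 10 receptors that passed the test between genotypes was largest at 24 hr. That order was not firm, since leaving out single libraries gave 3 to 4 at 24 hr and 2 to 5 at 48 hr. At 0 hr 1 of 10 passed the test between genotypes (adjusted p under 0.05), where 22.1% of all genes tested passed. At 3 hr it was 1 of 10 with 9.18% of all genes, at 24 hr 4 of 10 with 12.5%, and at 48 hr 2 of 10 with 13.1%. Cd69 was higher in WNK1-deficient thymocytes at every time, Cd83 at 24 and 48 hr and Tnfrsf9 at 24 hr, and Ctla4 was lower at 24 hr. Groups of libraries that did not overlap were found for 3, 3, 4 and 4 of the genes at 0, 3, 24 and 48 hr, where 40.5%, 28.2%, 33.9% and 23.3% of all genes tested were as cleanly apart. The median log2 fold change of the 10 genes was -0.03, 0.19, 0.17 and -0.18, beside -0.0022, -0.0193, 0.00313 and -0.0131 for all genes tested.

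**Figure D1:**
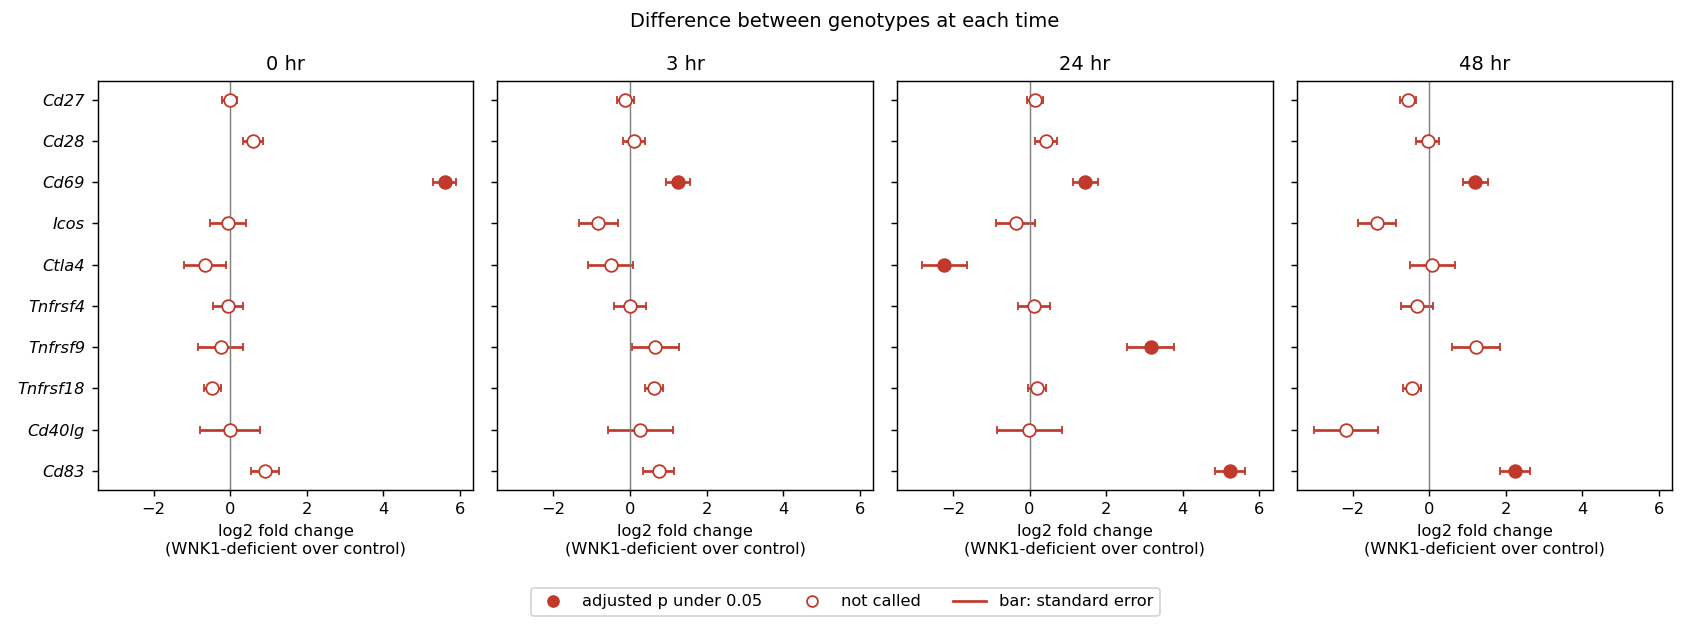
Log2 fold change of each gene, WNK1-deficient over control, at 0, 3, 24 and 48 hr (limma on log2(normalized count + 1)). Points are estimates from 3 or 4 mice per group, bars are standard errors, and filled points passed an adjusted p of 0.05: Cd69 stands at 5.60 at 0 hr and Cd83 at 5.24 at 24 hr.

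Cd69 was the only one of the 10 that passed the test between genotypes before any injection. WNK1-deficient libraries held 3844, 2815, 2569 and 3361 normalized counts of Cd69 at 0 hr, against 58.6, 78.1 and 55.0 in control libraries. The uninjected WNK1-deficient libraries overlapped in range with the control libraries taken 3 hr after anti-CD3ε. The difference was 48.5-fold (log2 fold change 5.60 ± 0.30, SE, adjusted p = 2.56e-10). With lane as a covariate, which at 0 hr can be fitted only through libraries of other times, it was 5.71 (adjusted p = 6.56e-05). At 3 hr Cd69 had 6218, 5958 and 5575 normalized counts in WNK1-deficient libraries, against 1259, 4422 and 2727 in control libraries. All WNK1-deficient libraries were higher, and they were close together while the control libraries were spread. The difference at 3 hr was 1.25 ± 0.32 (SE, adjusted p = 0.0165), and it missed the threshold without control replicate 1 (0.77, adjusted p = 0.0892), without WNK1-deficient replicate 1 (1.22, adjusted p = 0.0616) and with lane as a covariate (1.15, adjusted p = 0.0772). At 24 hr the values were 2677, 3302 and 2140 in WNK1-deficient libraries and 1403, 940 and 695 in control libraries. No library overlapped, and the log2 fold change was 1.46 ± 0.32 (SE, adjusted p = 0.0054), with 2.10 within lane 3 (2 WNK1-deficient libraries and 1 control library) and 0.90 within lane 4 (1 WNK1-deficient library and 2 control libraries). At 48 hr they were 1777, 2541 and 3147 in WNK1-deficient libraries, against 943, 1114 and 1109 in control libraries. The difference at 48 hr was 1.202 ± 0.32 (SE, adjusted p = 0.0177), and it missed the threshold without WNK1-deficient replicate 3 (1.01, adjusted p = 0.0867) and with lane as a covariate (0.94, adjusted p = 0.342).

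The response of Cd69 to anti-CD3ε, taken as the change from 0 hr, differed between genotypes, whose levels differed most at 0 hr. In WNK1-deficient thymocytes Cd69 changed by 0.93 at 3 hr, -0.22 at 24 hr and -0.36 at 48 hr on the log2 scale against 0 hr, and in control thymocytes by 5.27, 3.92 and 4.04. All 3 changes of control thymocytes passed the test (adjusted p between 1.64e-10 and 1.87e-08). In WNK1-deficient thymocytes 3 hr passed at an adjusted p of 0.0293, and it missed the threshold without any 1 of 5 libraries (adjusted p between 0.0664 and 0.0799, WNK1-deficient replicates 2 and 3 at 0 hr and 1, 2 and 3 at 3 hr) and with lane as a covariate (0.09, adjusted p = 0.977). The difference between the 2 responses was itself tested as a genotype by time interaction, which was -4.34 at 3 hr (adjusted p = 3.86e-05), -4.14 at 24 hr (adjusted p = 4.35e-05) and -4.40 at 48 hr (adjusted p = 1.56e-05). Of all genes tested 0.0707%, 0.658% and 1.36% passed these interaction tests. With lane as a covariate the 24 hr value held (-4.21, adjusted p = 0.0287), and those of 3 hr (-4.56, adjusted p = 0.0594) and 48 hr (-4.78, adjusted p = 0.0567) missed the threshold. The genes most like Cd69 over the 25 libraries were Relb, an NF-κB subunit (r = 0.959), and Nfkbia, the inhibitor IκBα (r = 0.921), given as a description across libraries that share time and genotype.

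**Figure D2:**
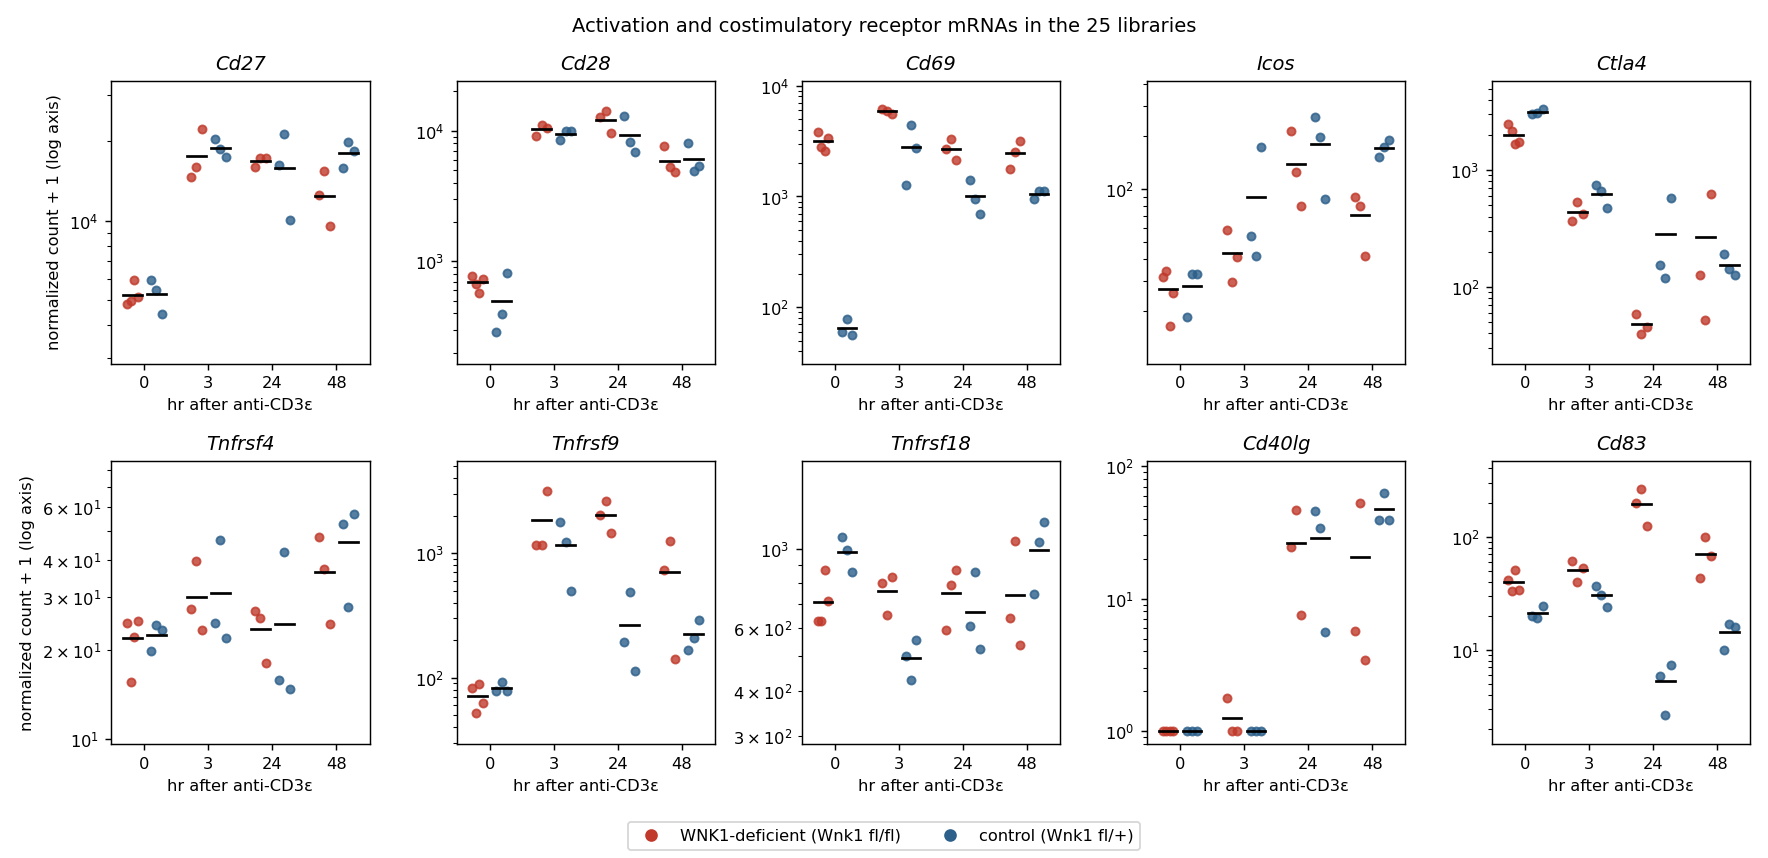
Normalized count plus 1 (log axis) of the 10 genes in every library by time after anti-CD3ε (evenly spaced), WNK1-deficient in red and control in blue, with the mean of each group as a black line. Cd69 at 0 hr is 2569 to 3844 in WNK1-deficient and 55.0 to 78.1 in control libraries, and Cd40lg is 0 in all libraries of 0 hr.

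Of the CD28 family, Cd28 itself rose strongly after anti-CD3ε in both genotypes and differed little between them. It had 777, 667, 574 and 737 normalized counts in WNK1-deficient libraries at 0 hr, against 286, 397 and 812 in control libraries. At 3 hr it had 9180, 10978 and 10507 in WNK1-deficient libraries and 8524, 9898 and 9974 in control libraries. The increase at 3 hr was 14.9-fold in WNK1-deficient thymocytes (log2 change 3.89 ± 0.27, SE, adjusted p = 1.99e-09) and 20.8-fold in control thymocytes (4.38 ± 0.29, SE, adjusted p = 5.79e-10). At 24 hr WNK1-deficient libraries had 12716, 14092 and 9674 normalized counts of Cd28 and control libraries 12902, 8138 and 6856. At 48 hr the values were 7583, 5281 and 4825 in WNK1-deficient libraries and 7999, 4948 and 5350 in control libraries. The groups overlapped at all of these times, and Cd28 remained above 0 hr at 24 and 48 hr in WNK1-deficient (4.13 and 3.08) and control thymocytes (4.31 and 3.72). Between genotypes the log2 fold change was 0.60 at 0 hr, which passed the test only without control replicate 3 (1.02, adjusted p = 0.00649), and 0.11, 0.42 and -0.04 later, with standard errors of 0.27 to 0.29. Cd28 ran closest to Ikzf1, the lymphoid transcription factor Ikaros (r = 0.978), and Septin11, a cytoskeletal GTPase (r = 0.964), over the 25 libraries.

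Icos, the inducible member, was read at a low level and rose later. It had 30.4, 33.0, 15.5 and 24.5 normalized counts in WNK1-deficient libraries at 0 hr, against 17.6, 31.7 and 31.7 in control libraries. At 24 hr it had 214, 124 and 78.6 in WNK1-deficient libraries, against 257, 198 and 87.2 in control libraries. All libraries of 24 hr were above those of 0 hr, with log2 changes of 2.32 ± 0.47 (SE, adjusted p = 0.00069) in WNK1-deficient and 2.61 ± 0.50 (SE, adjusted p = 0.000421) in control thymocytes. The change in WNK1-deficient thymocytes missed the threshold with lane as a covariate (2.88, adjusted p = 0.126). At 48 hr Icos had 89.7, 79.3 and 40.6 normalized counts in WNK1-deficient libraries, against 152, 172 and 190 in control libraries. These groups did not overlap, yet the difference missed the threshold (-1.36 ± 0.50, SE, adjusted p = 0.0802). The change from 0 hr at 48 hr was 2.67 (adjusted p = 0.000213) in control thymocytes. In WNK1-deficient thymocytes it was 1.38 (adjusted p = 0.0343), a call lost without WNK1-deficient replicates 3 (1.16, adjusted p = 0.102) or 4 (1.37, adjusted p = 0.0614) at 0 hr or replicates 1 (1.16, adjusted p = 0.165) or 2 (1.25, adjusted p = 0.103) at 48 hr, and with lane as a covariate (1.49, adjusted p = 0.436). The genotype by time interaction of Icos at 48 hr did not pass (-1.29, adjusted p = 0.461). At 3 hr WNK1-deficient libraries had 57.3, 28.6 and 40.0 normalized counts of Icos, against 53.0, 40.5 and 172.8 in control libraries. The highest of these, control replicate 3, was the library with the high sum of Cd4, Cd8a, Cd8b1 and Trac, and without it the control change from 0 hr, 1.43 (adjusted p = 0.0301), became 0.81 (adjusted p = 0.215). The same call was lost without control replicate 1 at 0 hr (1.16, adjusted p = 0.131) and with lane as a covariate (2.22, adjusted p = 0.0818). Icos was most like Tpm1, a tropomyosin (r = 0.917), and Raph1, an actin regulator (r = 0.916).

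Ctla4 went the other way from Cd28 and was the one gene of the 10 that fell at every time in both genotypes. At 0 hr WNK1-deficient libraries had 2501, 2160, 1661 and 1742 normalized counts of Ctla4, against 3040, 3093 and 3316 in control libraries. At 3 hr the values were 368, 534 and 418 in WNK1-deficient libraries and 748, 667 and 468 in control libraries. The decline from 0 hr was already clear there, with log2 changes of -2.19 (adjusted p = 0.00652) in WNK1-deficient and -2.35 (adjusted p = 0.00382) in control thymocytes. At 24 hr Ctla4 had 57.1, 38.2 and 44.6 normalized counts in WNK1-deficient libraries, against 152, 118 and 575 in control libraries. Every WNK1-deficient library was below every control library. The level was 42.3-fold below 0 hr in WNK1-deficient thymocytes (-5.40 ± 0.55, SE, adjusted p = 2.84e-07) and 14.4-fold below in control thymocytes (-3.85 ± 0.59, SE, adjusted p = 3.91e-05). Between genotypes Ctla4 at 24 hr was -2.22 ± 0.59 (SE, adjusted p = 0.0168), with -3.59 within lane 3 (n = 2 WNK1-deficient and 1 control) and -1.57 within lane 4 (n = 1 WNK1-deficient and 2 control). Without control replicate 3 at 24 hr, the library that kept Ptcra and the one control library of lane 3, it was -1.52 (adjusted p = 0.109), and the call was also lost without WNK1-deficient replicates 2 (-2.09, adjusted p = 0.0699) or 3 (-2.20, adjusted p = 0.0503). At 48 hr the values were 125, 50.9 and 623 in WNK1-deficient libraries and 188, 142 and 125 in control libraries. The highest of them was the WNK1-deficient library that kept Ptcra, and without it the log2 fold change at 48 hr was -0.90 in place of 0.08. At 0 hr the groups did not overlap either, and the log2 fold change of -0.66 ± 0.55 (SE) did not pass (adjusted p = 0.412).

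Across the 25 libraries Ctla4 moved with genes of the DN3 stage. Its correlation on the log2 scale was 0.963 with Ptcra and 0.868 with Il2ra, the CD25 chain that marks DN3 cells. The genes most like it were Dntt, the terminal transferase of immature lymphocytes (r = 0.968), and Myzap (r = 0.964). These are descriptions over libraries that share time and genotype, and the part of DN3 cells that remain in a library in the level of Ctla4 was not tested. The 2 libraries highest in Ctla4 for their groups at 24 and 48 hr were also the highest in Ptcra. Ptcra was itself lower in WNK1-deficient thymocytes at 24 hr (-5.62, adjusted p = 0.00107), at 3.06 to 5.93 normalized counts against 59.2 to 2344. Il2ra was not called at 24 hr (-0.30, adjusted p = 0.708). At 0 hr neither was called, although the groups of both did not overlap.

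**Figure D3:**
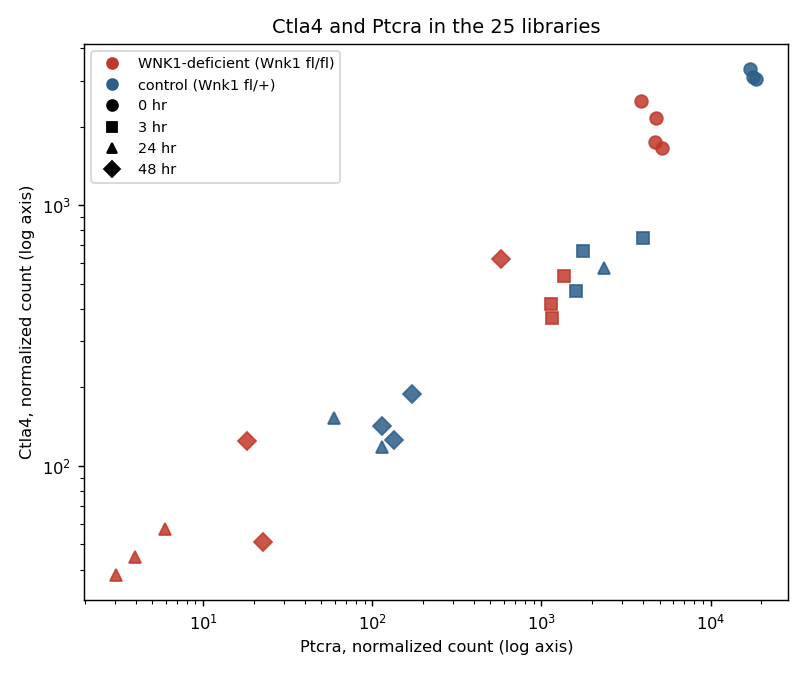
Normalized counts of Ctla4 (vertical, log axis) against Ptcra (horizontal, log axis) in each of the 25 libraries, WNK1-deficient in red and control in blue, with 1 symbol per time. The 24 hr control library at 2344 Ptcra and 575 Ctla4 and the 48 hr WNK1-deficient library at 574 Ptcra and 623 Ctla4 lie far to the right of the other libraries of their groups.

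Tnfrsf9, which encodes 4-1BB, showed the widest difference between genotypes of the 4 TNF receptors. It was low in all libraries of 0 hr, with 81.6, 50.7, 88.7 and 61.3 normalized counts in WNK1-deficient and 77.3, 91.9 and 77.2 in control libraries. At 3 hr it had 1166, 1170 and 3171 normalized counts in WNK1-deficient libraries, against 1769, 1235 and 494 in control libraries. Both genotypes rose at this time, 23.3-fold in WNK1-deficient (4.54 ± 0.58, SE, adjusted p = 1.25e-05) and 12.4-fold in control thymocytes (3.63 ± 0.62, SE, adjusted p = 0.000156), with overlapping ranges. At 24 hr Tnfrsf9 had 2019, 2606 and 1442 normalized counts in WNK1-deficient libraries, against 192, 487 and 112 in control libraries. WNK1-deficient libraries still overlapped with those of 3 hr, whereas control libraries lay between those of 0 and 3 hr, and the difference was 8.93-fold (3.16 ± 0.62, SE, adjusted p = 0.00207). It was 4.34 within lane 3 (n = 2 WNK1-deficient and 1 control) and 2.23 within lane 4 (n = 1 WNK1-deficient and 2 control). Against 0 hr the 24 hr change was 4.81 (adjusted p = 2.62e-06) in WNK1-deficient thymocytes. In control thymocytes it was 1.41 (adjusted p = 0.0861), and 1.89 (adjusted p = 0.0342) without control replicate 3 at 24 hr. It also passed in edgeR (1.65, adjusted p = 0.0499) and in DESeq2 (1.68, adjusted p = 0.0268). With lane as a covariate the control change was 4.33 (adjusted p = 0.00438). That fit joins the lanes of 24 hr to those of 0 hr only through WNK1-deficient replicate 3 at 48 hr, which had 142 normalized counts. The genotype by time interaction at 24 hr was 3.40 ± 0.85 (SE) and missed the threshold (adjusted p = 0.0667), while it passed in DESeq2 (3.17, adjusted p = 0.0184) and without control replicate 2 at 24 hr (3.98, adjusted p = 0.0231). At 48 hr Tnfrsf9 had 732, 1245 and 142 normalized counts in WNK1-deficient libraries, against 166, 209 and 291 in control libraries. The lowest of them was the WNK1-deficient library that kept Ptcra. The difference was 1.22 (adjusted p = 0.209) with it, 2.14 (adjusted p = 0.0198) without it, and 1.67 (adjusted p = 0.0491) in DESeq2 on all libraries.

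Cd27 had the highest level per kb of exon of the 10 genes in all 8 groups and rose in both genotypes. At 0 hr it had 4819, 4957, 5951 and 5135 normalized counts in WNK1-deficient libraries, against 5935, 5453 and 4435 in control libraries. At 3 hr it had 14663, 15921 and 22298 in WNK1-deficient libraries, against 20447, 18685 and 17432 in control libraries. The increase was 3.33-fold (1.74 ± 0.20, SE, adjusted p = 3.29e-06) in WNK1-deficient and 3.59-fold (1.85 ± 0.21, SE, adjusted p = 1.82e-06) in control thymocytes. The increase in WNK1-deficient thymocytes missed the threshold with lane as a covariate (1.97, adjusted p = 0.059). At 24 hr the values were 15915, 17322 and 17215 in WNK1-deficient and 16215, 21352 and 10042 in control libraries. At 48 hr Cd27 had 12468, 15356 and 9503 normalized counts in WNK1-deficient libraries, against 15795, 19937 and 18428 in control libraries. These groups of 48 hr did not overlap, and the difference of -0.56 ± 0.21 (SE) missed the threshold (adjusted p = 0.0911) unless WNK1-deficient replicate 2 was left out (-0.72, adjusted p = 0.0389). The 24 and 48 hr levels were above 0 hr by 1.69 and 1.23 in WNK1-deficient and by 1.53 and 1.78 in control thymocytes, all past the test. Cd27 was most like Cd6, a T cell coreceptor (r = 0.98), and Ptpn6, the phosphatase SHP-1 (r = 0.961).

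Tnfrsf18 and Tnfrsf4, neighbours on chromosome 4, had few changes with time that passed the test. Tnfrsf18 had 803, 652 and 833 normalized counts in WNK1-deficient libraries at 3 hr, against 500, 427 and 555 in control libraries. The groups were apart at 3 hr, and the difference of 0.62 ± 0.24 (SE) missed the threshold (adjusted p = 0.105). At 0 hr Tnfrsf18 had 627, 626, 871 and 711 in WNK1-deficient libraries and 1077, 990 and 857 in control libraries, which overlapped. Control thymocytes fell at 3 hr (-0.98 ± 0.24, SE, adjusted p = 0.00282), a call lost with lane as a covariate (-0.49, adjusted p = 0.379), and in WNK1-deficient thymocytes the change was 0.11 (adjusted p = 0.754). The interaction at 3 hr did not pass (1.09 ± 0.32, SE, adjusted p = 0.194). At 24 and 48 hr its libraries ran from 538 to 1048 normalized counts in WNK1-deficient and from 523 to 1188 in control thymocytes. The difference at 48 hr was -0.45 (adjusted p = 0.221), and it passed without WNK1-deficient replicate 2 (-0.73, adjusted p = 0.0374). In control thymocytes the 24 hr change was -0.58 (adjusted p = 0.0611), and it passed without control replicate 2 at 24 hr (-0.78, adjusted p = 0.0201) or with the same total set for every library (-0.65, adjusted p = 0.0299). Tnfrsf4 lay between 14.6 and 46.5 normalized counts in the WNK1-deficient libraries and between 13.8 and 56.1 in the control libraries. Its genotypes overlapped at every time and none of its 13 comparisons passed, with the nearest, 48 hr against 0 hr in control thymocytes, at 0.97 ± 0.42 (SE, adjusted p = 0.0665). That change passed only without control replicate 2 at 48 hr (1.30, adjusted p = 0.0249).

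Cd40lg, the one ligand among the 10, was absent from the reads at first. All 7 libraries of 0 hr had 0 reads, and of the 6 libraries of 3 hr only WNK1-deficient replicate 1 had any, a single read. At 24 hr Cd40lg had 23.7, 45.9 and 6.55 normalized counts in WNK1-deficient libraries, against 45.2, 33.3 and 4.59 in control libraries. At 48 hr it had 4.72, 52.2 and 2.46 in WNK1-deficient libraries, against 38.1, 62.3 and 38.0 in control libraries. Both genotypes had Cd40lg reads in every library of 24 and 48 hr, down to 2 reads in WNK1-deficient replicate 3 at 48 hr. Set against a floor of 3 reads per library at 0 hr, the means were at least 8.11-fold higher at 24 hr and at least 6.33-fold higher at 48 hr in WNK1-deficient thymocytes. Both bounds rest on WNK1-deficient replicate 2, without which they were 4.84-fold at 24 hr and 1.148-fold at 48 hr. In control thymocytes they were at least 8.43-fold higher at 24 hr and at least 14.05-fold higher at 48 hr. The changes passed the test at 24 hr (adjusted p = 0.000222) and 48 hr (adjusted p = 0.00332) in WNK1-deficient thymocytes and at 24 hr (adjusted p = 0.000419) and 48 hr (adjusted p = 2.13e-05) in control thymocytes. Only these libraries carried Cd40lg past the filter (mean 14.3 over all libraries), so these tests are not independent of the filter. With lane as a covariate the 48 hr change in WNK1-deficient thymocytes missed the threshold (adjusted p = 0.0955). Between genotypes the 48 hr difference of -2.17 ± 0.84 (SE) missed the threshold (adjusted p = 0.0934), and it was -3.37 (adjusted p = 0.00618) without WNK1-deficient replicate 2. Cd40lg lies on the X chromosome, and it was read in the male mice of 24 hr and the female mice of 48 hr. It was most like Evl, an actin regulator (r = 0.951), and Tmem9b (r = 0.948), and among the 10 genes it ran with Icos (r = 0.818) and opposite to Ctla4 (r = -0.828).

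Cd83 was low in control thymocytes throughout and moved in opposite directions in the genotypes at 24 hr. At 0 hr it had 40.1, 32.3, 49.3 and 32.5 normalized counts in WNK1-deficient libraries, against 18.7, 17.9 and 23.3 in control libraries. At 3 hr it had 59.6, 38.6 and 51.8 in WNK1-deficient libraries, against 35.3, 29.7 and 23.04 in control libraries. The groups were apart at both times, with log2 fold changes of 0.90 (adjusted p = 0.0822) and 0.75 (adjusted p = 0.263) that did not pass. At 24 hr Cd83 had 196, 261 and 122 normalized counts in WNK1-deficient libraries, against 4.93, 1.66 and 6.42 in control libraries. The difference was 37.8-fold (5.24 ± 0.39, SE, adjusted p = 9.6e-08), with 4.94 within lane 3 (n = 2 WNK1-deficient and 1 control) and 4.95 within lane 4 (n = 1 WNK1-deficient and 2 control). At 48 hr Cd83 had 41.8, 99.1 and 66.5 normalized counts in WNK1-deficient libraries, against 8.97, 15.9 and 15.0 in control libraries. All WNK1-deficient libraries were again higher, by 4.75-fold (2.25 ± 0.39, SE, adjusted p = 0.000846), and by 2.03 on the log2 scale within lane 1 (n = 2 WNK1-deficient and 1 control). Against 0 hr Cd83 rose by 2.25 at 24 hr in WNK1-deficient thymocytes (adjusted p = 7.71e-05) and was at -2.09 in control thymocytes (adjusted p = 0.000329). With lane as a covariate both missed the threshold (2.15, adjusted p = 0.136, in WNK1-deficient and -1.63, adjusted p = 0.125, in control thymocytes). The interaction at 24 hr was 4.34 ± 0.54 (SE, adjusted p = 0.000333), and 3.79 (adjusted p = 0.0844) with lane. The interaction at 48 hr did not pass (1.35, adjusted p = 0.261), and the 48 hr change in WNK1-deficient thymocytes, 0.76 (adjusted p = 0.129), passed only in DESeq2 (0.86, adjusted p = 0.0474). The order of the 8 group means was led by WNK1-deficient thymocytes at 24 hr, whose libraries were above those of the next group, WNK1-deficient at 48 hr, and it ended with control thymocytes at 24 hr, below those of control at 48 hr. The correlations of Cd83 with the genes most like it were lower than for Cd69, at 0.807 with Fgd6 and 0.8 with Atg4b, an autophagy protease.

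4-1BB and CD83 are also made by cells other than thymocytes, such as activated natural killer (NK) and dendritic cells, and the summed markers of both were higher in every WNK1-deficient than in every control library at 24 hr. Of all genes tested, 7.03% were called higher and 5.45% lower at 24 hr. The 4 NK markers Ncr1, Klrb1c, Klrd1 and Eomes summed to 253 to 546 normalized counts in WNK1-deficient libraries, against 39.5 to 94.8 in control libraries, and 2 of the 4 were called higher. The 5 dendritic cell markers Itgax, H2-Aa, H2-Ab1, Flt3 and Xcr1 summed to 840 to 1181 in WNK1-deficient libraries, against 522 to 814 in control libraries, and 2 of 3 tested were called higher. Itgax ran from 98.3 to 237 in WNK1-deficient and from 16.4 to 64.9 in control libraries and H2-Aa from 318 to 426 in WNK1-deficient and from 98.7 to 173 in control libraries, while H2-Ab1 overlapped (414 to 520 in WNK1-deficient and 393 to 608 in control libraries). Flt3 overlapped too, at 5.93 to 18.3 in WNK1-deficient and 6.65 to 13.98 in control libraries, and Xcr1 was at 2.23 to 3.06 in WNK1-deficient libraries, about the level of 3 reads, and at 0 in control libraries. The 5 myeloid markers Lyz2, Csf1r, Itgam, Cd14 and Adgre1 summed to 288 to 517 in WNK1-deficient and 215 to 639 in control libraries at 24 hr. Of the 4 tested, 0 were called. At 48 hr, when Cd83 still differed, the NK markers summed to 36.9 to 96.5 in WNK1-deficient and 26.9 to 65.1 in control libraries, and the dendritic cell markers to 332 to 731 in WNK1-deficient and 192 to 544 in control libraries. Thy1, the antigen of the sort, was lower at 24 hr, at 10980 to 17950 normalized counts in WNK1-deficient and 29875 to 44164 in control libraries. Cd3e overlapped (17322 to 18276 in WNK1-deficient and 15405 to 21936 in control libraries). Of 8 DN markers, Thy1, Lck (-0.97, adjusted p = 0.000841) and Ptcra (-5.62, adjusted p = 0.00107) were called lower at 24 hr, and 0 higher. At 0 hr the NK markers summed to 2.82 to 76.0 in WNK1-deficient and 2.12 to 8.20 in control libraries. The dendritic cell markers summed at 0 hr to 1061.5 to 2444 in WNK1-deficient and 1119 to 1247 in control libraries. The part of other cells in the levels of Tnfrsf9, Cd83 and Cd69 was not tested.

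Against 0 hr, 5 to 7 of the 10 genes passed the test at each time in either genotype. At 3, 24 and 48 hr 5, 7 and 6 of them passed against 0 hr in WNK1-deficient thymocytes, where 24.7%, 30.4% and 26.8% of all genes tested did. In control thymocytes 7, 7 and 6 passed, where 37%, 33.9% and 42.4% of all genes did. Libraries that did not overlap with those of 0 hr were seen for 5, 7 and 6 of the genes in WNK1-deficient thymocytes (42.3%, 50% and 33.9% of all genes) and for 7, 9 and 9 in control thymocytes (48.3%, 42.8% and 50.2%). By the test, Cd27 and Cd28 rose and Ctla4 fell at all 3 times in both genotypes. Cd40lg passed as higher at 24 and 48 hr in both and is part of the counts of those times. It passed the filter only through libraries of 24 and 48 hr, so its tests are not independent of the filter. Without WNK1-deficient replicate 2 its bound at 48 hr against the 3-read floor was 1.148-fold. Tnfrsf9 passed as higher at all 3 times in WNK1-deficient thymocytes and at 3 hr in control thymocytes. Control libraries of 24 and 48 hr were also all above those of 0 hr in Tnfrsf9, and missed the threshold (1.41, adjusted p = 0.0861, and 1.39, adjusted p = 0.0786). The changes of a genotype share its 0 hr libraries and are not independent of each other. Over the 25 libraries the closest pair among the 10 was Cd27 and Cd28 (r = 0.909).

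**Figure D4:**
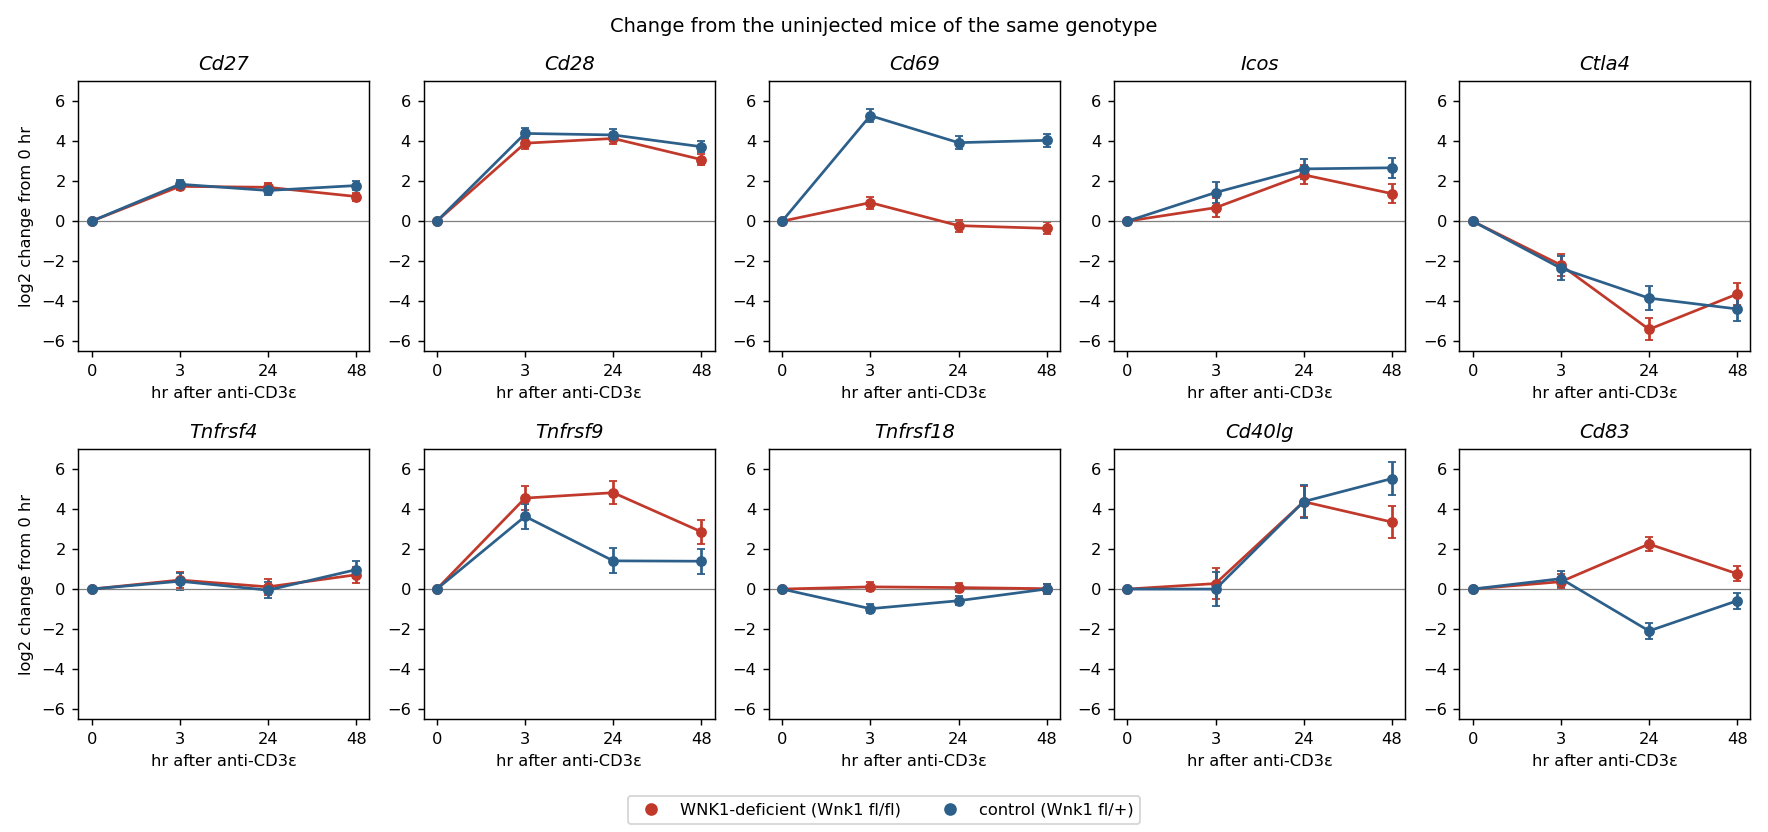
Log2 change from the uninjected mice of the same genotype at 3, 24 and 48 hr for each of the 10 genes, WNK1-deficient in red and control in blue, with standard errors as bars (3 or 4 mice per group) and times spaced evenly, not to scale. The lines part most for Cd69 (0.93 in WNK1-deficient and 5.27 in control thymocytes at 3 hr) and Cd83 (2.25 in WNK1-deficient and -2.09 in control thymocytes at 24 hr), and the values of Cd40lg depend on the pseudocount because its 0 hr libraries are at 0.

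Divided by exon length, the levels of the 10 genes could be set against each other. On this scale of normalized counts per kb of exon, Cd27 was first in every group, at 2240 in WNK1-deficient and 2266 in control thymocytes at 0 hr. Cd69 followed at 0 hr in WNK1-deficient thymocytes (1942 per kb), whereas in control thymocytes Ctla4 ranked 2 (1352 per kb) and Cd69 ranked 5 (39.4 per kb). At 24 hr Cd28 ranked 2 in both genotypes, at 1986 per kb in WNK1-deficient and 1519 per kb in control thymocytes. Ctla4 then ranked 9 in WNK1-deficient (20.01 per kb) and 5 in control thymocytes (121 per kb). Cd83 ranked 6 in WNK1-deficient (86.2 per kb) and last in control thymocytes (1.94 per kb).

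Genes that work beside these receptors were counted from 4 lists. Of all genes tested, 11%, 5.75%, 7.03% and 6.13% were called higher and 11.1%, 3.43%, 5.45% and 6.95% lower at 0, 3, 24 and 48 hr. Of 15 other T cell coreceptors tested of 16, 3, 1, 1 and 0 were higher in WNK1-deficient thymocytes at 0, 3, 24 and 48 hr, and 0, 1, 0 and 2 were lower. At 0 hr the adhesion receptor Cd2 averaged 198 ± 96.6 normalized counts in WNK1-deficient and 26.5 ± 10.8 in control thymocytes (SD, n = 4 and 3, log2 fold change 2.83, adjusted p = 0.00447). Cd160 averaged 4657 ± 147 in WNK1-deficient and 1573 ± 887 in control thymocytes at 24 hr (SD, n = 3 each, 1.80, adjusted p = 0.0174), and the inhibitory receptor Lag3 averaged 23.7 ± 6.06 in WNK1-deficient and 108 ± 51.8 in control thymocytes at 48 hr (SD, n = 3 each, -2.04, adjusted p = 0.0321). Of 18 other TNF receptors tested of 22, 5, 2, 2 and 1 were higher and 4, 2, 1 and 4 lower. Tnfrsf14, the receptor HVEM, averaged 272 ± 20.9 in WNK1-deficient and 522 ± 32.6 in control thymocytes at 0 hr (SD, n = 4 and 3, -0.94, adjusted p = 0.00688) and was again lower at 48 hr (-1.14, adjusted p = 0.00504). Tnfrsf21, the death receptor DR6, was higher at 0, 24 and 48 hr (0.82, 1.12 and 1.52).

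Of the ligands of these receptors, 4 of 8 were tested, of which 2, 2, 2 and 1 were higher in WNK1-deficient thymocytes at 0, 3, 24 and 48 hr and none lower. Icosl, the ligand of ICOS, averaged 943 ± 108 normalized counts in WNK1-deficient and 401 ± 68.0 in control thymocytes at 0 hr (SD, n = 4 and 3, 1.24, adjusted p = 0.00314). At 3 hr it averaged 359 ± 11.5 in WNK1-deficient and 146 ± 33.4 in control thymocytes (SD, n = 3 each, 1.31, adjusted p = 0.00654). At 24 and 48 hr Icosl did not pass (-0.55, adjusted p = 0.238, and -0.81, adjusted p = 0.0734). Its genotype by time interaction passed at both times (-1.79, adjusted p = 0.0387, and -2.05, adjusted p = 0.0128). Tnfsf4, the ligand of OX40, was called higher at 0, 3, 24 and 48 hr (3.53, 1.93, 1.71 and 1.51), at a mean of 39.3 normalized counts over all libraries. Cd86 was the other ligand called at 24 hr (1.62, adjusted p = 0.0456). All 18 downstream signalling genes of the list (adaptors, kinases, NF-κB subunits and others) were tested, and 4, 1, 3 and 0 were higher and 3, 0, 2 and 5 lower. Relb averaged 1123 ± 97.4 in WNK1-deficient and 151 ± 31.3 in control thymocytes at 0 hr (SD, n = 4 and 3, 2.90, adjusted p = 6.38e-08), and 1167 ± 121 in WNK1-deficient and 560.5 ± 236.8 in control thymocytes at 24 hr (SD, n = 3 each, 1.15, adjusted p = 0.00416). Traf1, an adaptor of 4-1BB, was lower at 0 hr (-0.90, adjusted p = 0.0102), and Nfkb2 was lower at 0 hr (-0.87, adjusted p = 0.000954) and higher at 24 hr (0.70, adjusted p = 0.0128). Prkcq, the kinase PKCθ that acts below CD28, averaged 10230 ± 3455 in WNK1-deficient and 19950 ± 3028 in control thymocytes at 48 hr (SD, n = 3 each, -1.01, adjusted p = 0.00378).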

How the data were processed

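RNA-seq was made from sorted thymocytes of 25 mice by a stranded polyA protocol with single-end reads of 75 bases. Per the submitters' processing notes and the methods of the study, reads were trimmed with Trimmomatic 0.36, aligned with STAR 2.5.2a to GRCm38 and counted with RSEM 1.2.31, and the authors scaled them with DESeq2 1.18.1 in R 3.4.1. As deposited, the signal of a gene is its RSEM count after division by a size factor, 1 per library. Divided by its smallest step, each library held whole numbers within 0.001. In 23 libraries low values show that step, and in the other 2 it is too near 1 to decide.

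Ensembl identifiers were matched to symbols through gene name tables (32771 of 48795 genes). Values were tested on log2(value + 1) with limma 3.58.1 (empirical Bayes with trend, R 4.3.3), 14141 genes with a mean of at least 10, 1 mean for each of 8 groups and Benjamini-Hochberg adjustment over all genes tested. Fold changes are on that scale and understate the change of low genes. Comparisons were WNK1-deficient against control at each time, each time against 0 hr, and their interaction. Depth came from the recovered reads, which hold no molecular identifiers, so floors of 3 reads cover counting error only.

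The 10 genes and all lists were chosen with earlier results of these data known. From each related list at most 2 higher and 2 lower genes per comparison could be named, those of largest change past the threshold with a mean of at least 100, and for each of the 10 genes the 2 genes with the highest Pearson r over the 25 libraries (mean of at least 100, no predicted genes). The ligands Tnfsf4 and Cd86, below that mean, were named as exceptions because calls of the ligand list rest on them. Alternatives were a pseudocount of 5, no filter, the same total per library, the replicate number as a block, lane as a covariate, edgeR 4.0.16 and DESeq2 1.42.0 on recovered reads, and each library left out. Leaving out the 3 libraries that stand apart was added after seeing the data. Exon lengths came from the gencode vM1 models, coordinates and promoters from RefSeq on GRCm38.p6. The limma fit was tested on simulated counts with 1 fixed dispersion and no lane, sex or outlying libraries, so that test does not cover these features. Protein sequences and other readouts of the study were not analysed here.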

Additional observations from a re-analysis of the deposited data

Results flagged for a closer look

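Among the 10 genes, the genotypes differed in their response to anti-CD3ε in 4 tests of the interaction itself. For Cd69 the response of WNK1-deficient thymocytes was smaller than that of control thymocytes by a log2 interaction of -4.34 at 3 hr, -4.14 at 24 hr and -4.40 at 48 hr. All 4 WNK1-deficient libraries of 0 hr, which serve all 3 of these tests, were above all 3 control libraries of 0 hr. For Cd83 the interaction was 4.34 at 24 hr, with all 3 WNK1-deficient libraries above, and all 3 control libraries below, those of 0 hr of the same genotype. With lane as a covariate, the Cd69 value at 24 hr stayed past the threshold and the other 3 did not, and the part of lane was not tested further. The 4 WNK1-deficient libraries of 0 hr held no library far from the others for any of the 10 genes, and groups of 3 were not examined for that.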

How the results depend on the processing

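Of 130 values of the 10 genes (13 comparisons each), 50 were called. Of these, 44 kept call and sign without any single library, 46 under every alternative other than lane and single libraries, and 36 with lane as a covariate. No called value changed sign. Lane moved the count of genes called to 0 between genotypes at 3 hr, 1 between genotypes at 48 hr, 3 at 3 hr against 0 hr in WNK1-deficient thymocytes, and 0, 1 and 0 for the interaction at 3, 24 and 48 hr. Against 0 hr it also left 5 of 7 genes at 24 hr and 4 of 6 at 48 hr in WNK1-deficient thymocytes, and 5 in place of 7 at 3 hr in control thymocytes. Libraries of 3 and 24 hr shared neither lane nor sex with those of 0 hr. Only WNK1-deficient replicate 3 at 48 hr, which is among the 3 libraries that stand apart, joins their lanes within a group. With lane as a covariate, calls kept or lost at 3 and 24 hr against 0 hr therefore rest on that library. The other comparisons with lane rest on few libraries. Without the 3 libraries that stand apart, an alternative chosen after seeing the data, 1, 1, 4 and 2 genes were called between genotypes, and the interaction at 48 hr had 2 calls (Cd69 and Tnfrsf9).

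Leaving out single libraries gave 1 to 2, 0 to 1, 3 to 4 and 2 to 5 genes called between genotypes at 0, 3, 24 and 48 hr. The 2 at 0 hr came without control replicate 3, the 0 at 3 hr without control or WNK1-deficient replicate 1, and the 5 at 48 hr without WNK1-deficient replicate 2. Against 0 hr at 3, 24 and 48 hr the counts were 4 to 5, 7 to 7 and 5 to 6 in WNK1-deficient and 6 to 7, 7 to 8 and 6 to 7 in control thymocytes, and 1 to 1, 2 to 3 and 1 to 1 for the interactions. A group left with 2 mice is assumed to vary like the others.

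Replicate numbers did not pair the mice: same-numbered libraries of the genotypes had correlated deviations of -0.197 to 0.205 over 12 pairs, 2 of them over 0.1. With the replicate number as a replicate block 1, 1, 4 and 2 genes were called between genotypes, 5, 7 and 5 against 0 hr in WNK1-deficient, 7, 7 and 6 in control thymocytes, and 1, 2 and 1 for the interactions, and Icos at 48 hr in WNK1-deficient thymocytes was the only call lost (adjusted p = 0.0717). Groups of 3 mice miss small changes, and levels near the 3-read floor (Cd40lg, and Cd83 in control thymocytes at 24 hr) carry wide counting error.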
